A study of Mus musculus with 6 samples.

Results

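The collagens and a small group of matrix and mesenchymal genes were followed in RNA from adult mouse pancreatic acinar cells with and without Trip12. The members are the protein-coding genes whose symbol has the form of a collagen chain (Col, a number, a, a number), together with Fn1, Sparc, Dcn, Lum, Fbn1, Postn, Acta2, Pdgfra, Pdgfrb and Vim. These were 54 of the 55414 annotated genes, 44 collagens and 10 others. The comparison used 3 control preparations of genotype Pdx1Cre;Trip12+/+ and 3 knockout preparations of genotype Pdx1Cre;Trip12fl/fl, in which Cre deletes the floxed Trip12, a gene for a ubiquitin ligase. Both groups carry the Cre recombinase driven by the Pdx1 promoter, which is active in the cells that give rise to the pancreatic epithelium and not in fibroblasts or vessels. Per the labels all animals were adult and untreated and each library is a biological replicate, numbered 1 to 3 in each group. Poly-A RNA was sequenced in bulk, so fewer cells of a type and less RNA per cell cannot be told apart in any value below.

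Collagens are trimers of chains wound around each other, and their chains are hydroxylated in the endoplasmic reticulum, secreted, trimmed and cross-linked outside the cell. Fibrillar collagens form the cables of connective tissue, network collagens form the sheet of the basement membrane under epithelia and around vessels, and smaller groups decorate fibrils or anchor the sheet to them. In the pancreas most fibrillar collagen comes from fibroblasts and stellate cells, whereas acinar cells rest on a basement membrane.

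Sequences are shown for 3 places that the results return to, taken from RefSeq on build GRCm38.p6, whose promoter table held 41 of the 54 members. Col4a1 and Col4a2, the members called when the libraries were compared by numbered pair, are divergent neighbours on chromosome 8. As RefSeq places their starts, the transcribed parts overlap over 22 bases, shown on the plus strand at chr8:11312805-11312826. Capitals mark GGGCGG, a box that many promoters hold.

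Col4a1 and Col4a2 shared start: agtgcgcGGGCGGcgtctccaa

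Col7a1, the member of highest level, and Col3a1, the fibrillar collagen of highest level, behaved differently across the libraries, and the 250 bases before each start are shown to set them side by side. They lie at chr9:108953336-108953585 and chr1:45311288-45311537, both on the plus strand. Capitals mark GGGCGG and CCAAT in either orientation. TGANTCA was searched as well, on both strands, and the 3 motifs do not overlap in these windows.

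Col7a1 upstream: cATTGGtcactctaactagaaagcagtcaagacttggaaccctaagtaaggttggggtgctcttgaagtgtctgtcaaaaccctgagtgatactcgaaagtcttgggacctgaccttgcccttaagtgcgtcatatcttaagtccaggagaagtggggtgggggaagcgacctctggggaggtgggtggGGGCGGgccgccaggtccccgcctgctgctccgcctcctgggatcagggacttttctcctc
Col3a1 upstream: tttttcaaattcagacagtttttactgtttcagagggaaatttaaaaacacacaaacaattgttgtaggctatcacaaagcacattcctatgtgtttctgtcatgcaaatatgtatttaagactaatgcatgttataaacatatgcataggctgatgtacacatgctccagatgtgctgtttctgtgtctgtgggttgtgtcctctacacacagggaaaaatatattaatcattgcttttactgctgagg

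The Col7a1 window was 56.4% G and C and held 1 GGGCGG and 1 CCAAT, and the Col3a1 window was 35.2% G and C and held none of the motifs. Over all 32851 windows of this length in the table, 32.7% held GGGCGG, 33.8% held CCAAT and 6.75% held TGANTCA. A match describes these letters and does not show a binding site.

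The libraries held between 31019500 and 34041901 gene counts, of which the members took from 0.00963% in control 2 to 0.0430% in knockout 1. Levels are given as CPM, the count relative to the library size after trimmed-mean scaling. Trip12 itself stood at 29.0, 22.3 and 26.4 CPM in controls 1 to 3 and at 14.4, 14.7 and 13.0 CPM in knockouts 1 to 3, with a log2 fold change of -0.89 (edgeR adjusted p = 0.0256). Its counts run over the whole gene and do not show the deleted exons. Digestive enzyme genes marked every library as acinar, with Ctrb1 (chymotrypsinogen) at 100082 CPM or more in each. Xist, the RNA of the inactive X chromosome, was at 86.9 and 88.6 CPM in controls 2 and 3 and at most 0.143 CPM in the other 4 libraries, so it split the controls and matched control 1 with the knockouts.

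Most collagens and matrix genes were higher on average in the knockout libraries, but the spread within each group was larger than that difference, and no member passed the test. Of the 54 members, 36 had enough counts to be tested. Their median log2 fold change was 0.60, against 0.02 over all 13115 genes tested, and 32 of the 36 values were above 0. Their median standard error was 0.75 on the log2 scale, against 0.22 over all genes. None was called at an adjusted p under 0.05 in edgeR's quasi-likelihood test, where 0.945% of all genes were called. At an unadjusted p under 0.05 there were 2 members, Col4a5 and Col9a3, beside 16.7% of all genes. DESeq2 called 0 members with 3 at an unadjusted p under 0.05, and limma-voom called 0 with 2.

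The same-numbered libraries of the groups deviated together, and a fit with the replicate number as a block narrowed the errors. The labels do not say that equal numbers share anything. The pairing was taken from the same counts that this fit tests, so its p-values are not independent support. In that fit the members' median log2 fold change was 0.58 with a median standard error of 0.33. Of the 36 tested members 2 were called, Col4a1 and Col4a2, both higher in knockout. Of all genes 5.98% were called and 3.39% were called higher, so the members' share was close to that of all genes in either direction. At an unadjusted p under 0.05 the fit held 14 members, all of them higher, beside 22.4% of all genes in either direction and 12.4% higher. In 17 of the 36 tested members the knockout was higher in all 3 numbered pairs, which is 47.2% beside 24.2% of all genes. In 0 members was the knockout lower in all 3, beside 20.8% of all genes. In pairs 2 and 3 the control held Xist and the knockout did not. Neither the pair counts nor the block fit can tell that difference from genotype there. The members also varied together, so these counts do not come from independent genes. The groups failed to overlap in 2 members, Col4a5 and Col9a3, both higher, beside 22.9% of all genes in either direction and 11.9% higher.

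The size of the shift depended on single libraries, and its direction on the Xist covariate. Without control 1 the members' median log2 fold change was 1.21, and without knockout 1 it was 0.23. With the Xist-positive libraries as a covariate, which leaves control 1 as the only Xist-negative control, the median was -0.19, 9 of 36 values were above 0 and 0 members were called (0.16% of all genes were), with 0 at an unadjusted p under 0.05. Scaling by library totals moved the median of all genes by 0.41 on the log2 scale and that of the members to 0.96. That scaling called Col4a5, Col7a1 and Col9a3, beside 11.7% of all genes.

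**Figure D1:**
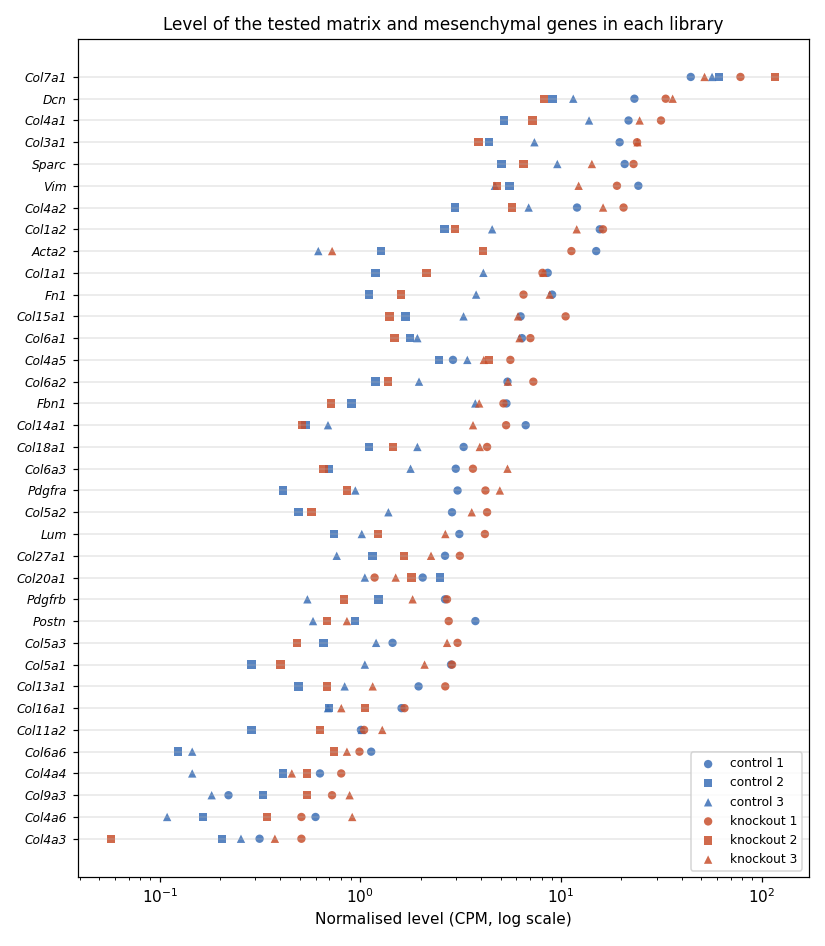
Level of each of the 36 tested members in CPM on a log axis, 1 point per library, with controls in blue and knockouts in orange and the replicate number given by the marker shape. For most genes the circles lie to the right and the squares to the left in both colours, and Col7a1 in the top row shows the reverse, with the knockout 2 square at 117 CPM furthest right.

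**Figure D2:**
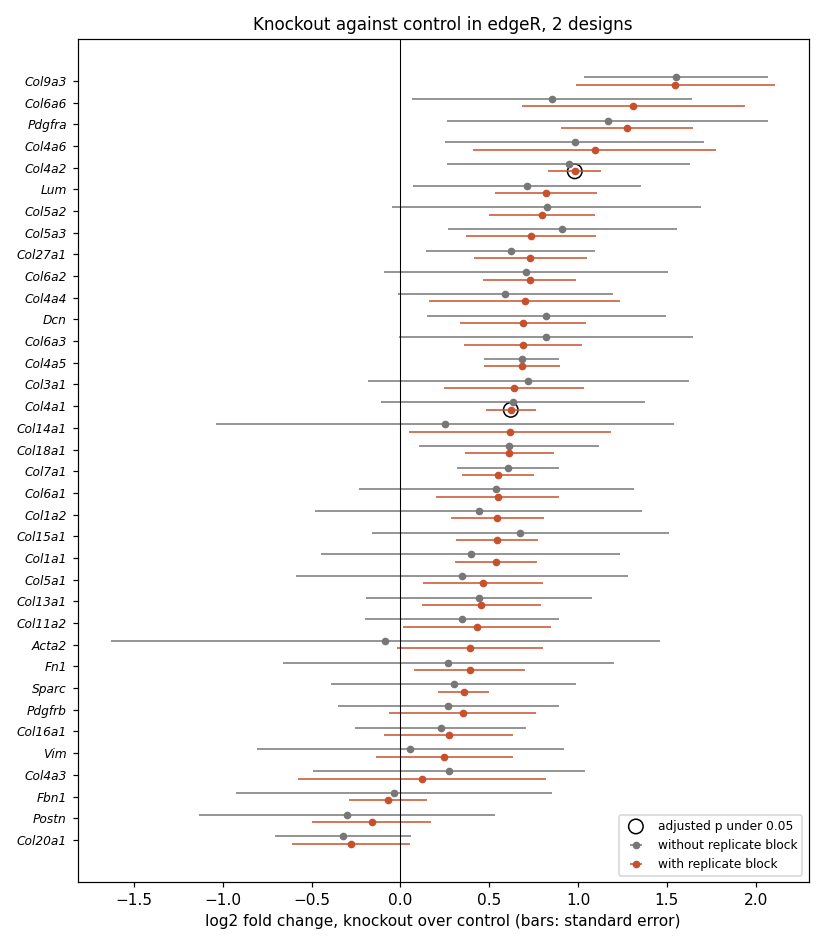
Log2 fold change of knockout over control for each tested member, with bars of 1 standard error, from edgeR without the replicate block (grey) and with it (orange). The bars are shorter with the block, and the 2 ringed points, Col4a2 at 0.98 and Col4a1 at 0.62, are the members called there.

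Most members varied together from library to library, whatever the genotype. Col7a1 ran against this and was set apart after its values were seen. The summed level of the other 35 tested members was 241 CPM in control 1, 59.9 in control 2 and 97.5 in control 3. It was 279 CPM in knockout 1, 72.2 in knockout 2 and 225 in knockout 3. Knockout 1 was the highest library for 19 of the 35, control 1 for 8, knockout 3 for 7 and control 2 for 1. The lowest library was control 2 for 16, control 3 for 10 and knockout 2 for 9. Control 1 exceeded both other controls in 31 of the 35, and knockout 2 was the lowest knockout in 30.

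Within a group the members spread further than genes as a whole. The median range among controls was 2.00 log2 units for the 36 members and 0.52 for all genes tested, and among knockouts it was 1.95 and 0.42. This spread was not particular to the members. Fibroblast, endothelial and leukocyte markers had median ranges of 2.08, 2.05 and 2.39 among controls and 1.88, 1.81 and 2.43 among knockouts. Duct markers had 0.46 and 0.70. Control 1 stood at a median of 4.02 times control 2 for the members, against 1.01 times for all genes. The median differences of the numbered pairs, knockout minus control, were 0.26, 0.37 and 1.21 log2 units for pairs 1, 2 and 3, so the third pair held the largest shift.

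**Figure D3:**
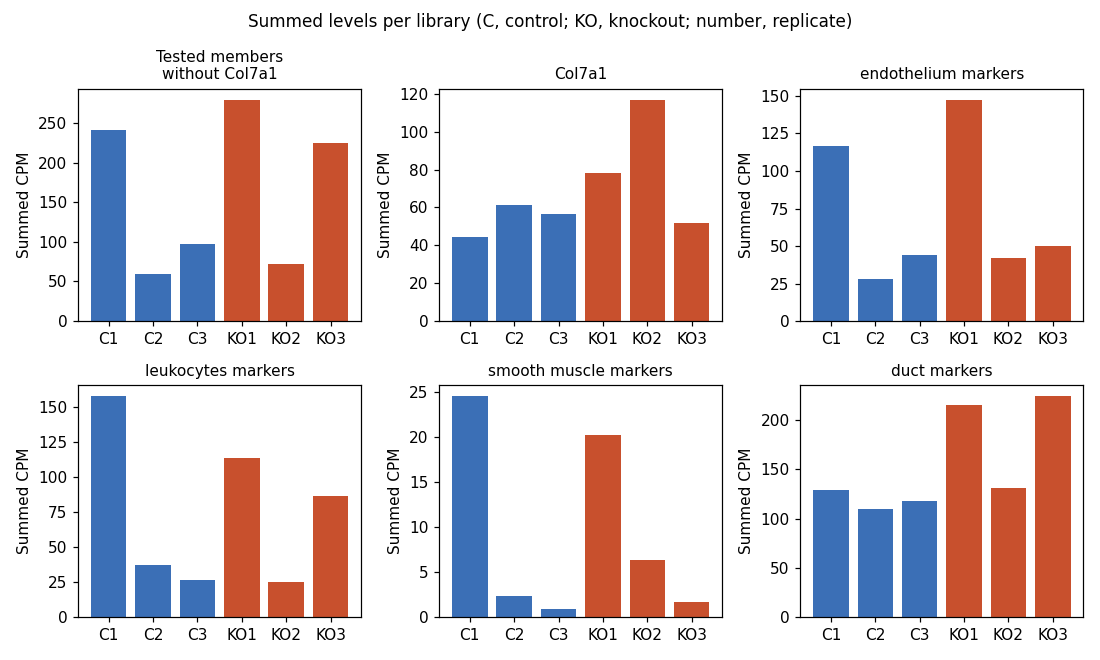
Summed level in CPM per library (C, control; KO, knockout; the number is the replicate) of the 35 tested members without Col7a1, of Col7a1 alone, and of 4 marker lists of other cell types, on linear axes from 0. The member sum of 241, 59.9 and 97.5 CPM in controls and 279, 72.2 and 225 CPM in knockouts is highest in number 1 and lowest in number 2 of each group, as is the endothelium sum, while the leukocyte sum is lowest in number 3 among controls.

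Among the network collagens, which build the basement membrane sheet, the paired chains Col4a1 and Col4a2 were called with the block. That fit called 5.98% of all genes. Col4a1 encodes the most widespread type IV chain. It stood at 21.7, 5.21 and 13.8 CPM in controls 1 to 3 and at 31.5, 7.22 and 24.7 CPM in knockouts 1 to 3, from raw counts between 127 and 1177. Each knockout exceeded the control of its number, and the groups overlapped. On the log2 scale the difference was 0.63 with a standard error of 0.74 (edgeR adjusted p = 0.754) without the block and 0.62 with a standard error of 0.14 (edgeR adjusted p = 0.0253) with it.

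Col4a2, whose chain joins Col4a1 chains in the same trimer, stood at 12.0, 2.96 and 6.90 CPM in controls and at 20.5, 5.70 and 16.2 CPM in knockouts. Again libraries numbered 2 were the lowest of each group, and every pair was higher in knockout, by 1.71, 1.93 and 2.35 times. On the log2 scale the difference was 0.95 with a standard error of 0.68 (edgeR adjusted p = 0.570), and with the block 0.98 with a standard error of 0.15 (edgeR adjusted p = 0.00404). In block fits that left out both libraries of a number, Col4a1 was called in none, and Col4a2 was called without the libraries numbered 1 or 3 but not without those numbered 2. With the Xist covariate the Col4a1 value was -0.04, whereas Col4a2 kept its sign in all 22 alternative fits, with a lowest value of 0.235. The counts were used without regard to strand, so reads within the 22 shared bases cannot be assigned to either gene.

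Col4a5, an X-linked chain of epithelial basement membranes, spread far less. Its level was 2.90, 2.46 and 3.41 CPM in controls and 5.60, 4.36 and 4.13 CPM in knockouts, and every knockout lay above every control. The log2 fold change of 0.68 came with a standard error of 0.21 (edgeR adjusted p = 0.163), so it missed the threshold. Col4a6, its X-linked neighbour in a head-to-head pair, had between 3 and 34 counts per library, Col4a3 between 2 and 19 and Col4a4 between 4 and 30, and none of them passed in either fit. Over the 9 network collagens, 6 were tested, all with a log2 fold change above 0 and a median of 0.66.

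**Figure D4:**
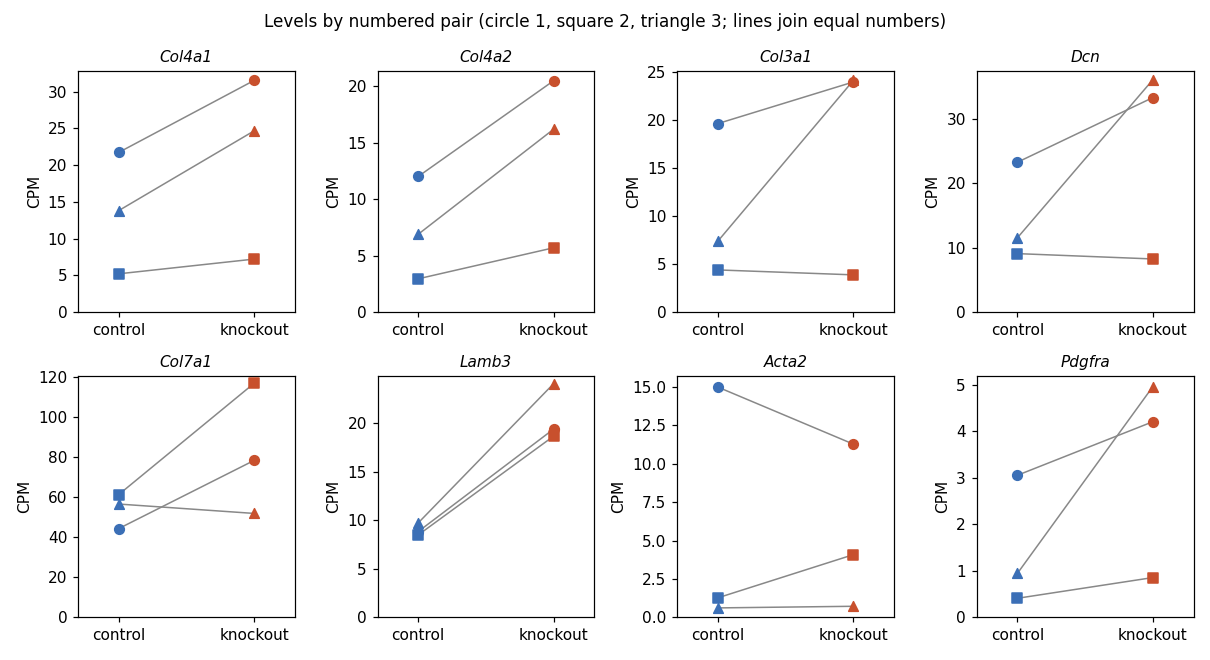
Levels in CPM of 8 genes by numbered pair, with a line from each control (blue) to the knockout of the same number (orange), on linear axes from 0. Col4a1 and Col4a2 climb in each pair from very different starting levels, Lamb3 climbs from 8.84, 8.50 and 9.73 CPM to 19.4, 18.7 and 24.1 CPM with little spread, and Acta2 goes from 14.98 to 11.3 CPM in pair 1.

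Fibrillar collagens, the main chains of scar and interstitial matrix, had their highest level per length in Col3a1, at 1.41 CPM per kb. It measured 19.6, 4.39 and 7.37 CPM in controls and 23.9, 3.88 and 24.1 CPM in knockouts. Control 1 was thus close to knockouts 1 and 3, and knockout 2 was the lowest library of all. On the log2 scale the difference was 0.72 with a standard error of 0.90 (edgeR adjusted p = 0.774).

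The chains of type I collagen were both lowest in control 2. Col1a2 was at 15.6, 2.63 and 4.54 CPM in controls and 16.2, 2.97 and 12.0 CPM in knockouts. Col1a1 was at 8.59, 1.19 and 4.10 CPM in controls and 8.09, 2.14 and 8.17 CPM in knockouts. In both genes the third pair differed most, by 2.64 times for Col1a2 and 1.99 times for Col1a1, while the ratio in pair 1 was 1.04 and 0.94. Neither passed, with edgeR adjusted p-values of 0.877 and 0.879. The Col1a1 value of 0.40 on the log2 scale turned to -0.05 without control 2.

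Col5a2, a chain that nucleates type I fibrils, stood at 2.86, 0.49 and 1.38 CPM in controls and 4.28, 0.57 and 3.59 CPM in knockouts. Col27a1, a fibrillar collagen of cartilage, stood at 2.64, 1.15 and 0.76 CPM in controls and 3.13, 1.65 and 2.25 CPM in knockouts. Both were higher in knockout in each pair, with overlapping groups. Of the 11 fibrillar collagens 8 were tested, with a median log2 fold change of 0.53, 0 called in either fit, and 0 at an unadjusted p under 0.05 without the block (DESeq2 and limma-voom called 0 as well).

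Type VI chains form beaded filaments between cells and fibrils. Col6a1 was at 6.39, 1.76 and 1.92 CPM in controls and 7.04, 1.48 and 6.22 CPM in knockouts. Col6a2 was at 5.41, 1.19 and 1.96 CPM in controls and 7.28, 1.37 and 5.44 CPM in knockouts. Col6a3 was at 2.99, 0.70 and 1.78 CPM in controls and 3.64, 0.66 and 5.41 CPM in knockouts. Each of the 3 had its largest pair difference in pair 3, at 3.23, 2.77 and 3.04 times. Of the 6 genes of this group 4 were tested and none passed in either fit.

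The fibril-associated collagens sit on the surface of fibrils and were scarce. Col14a1 had the widest spread of the named ones, at 6.67, 0.53 and 0.69 CPM in controls and 5.33, 0.51 and 3.64 CPM in knockouts. Its log2 fold change (0.25) had a standard error of 1.29 (edgeR adjusted p = 0.951). Col9a3, whose groups did not overlap, rested on 7, 8 and 5 counts in controls and 27, 19 and 33 counts in knockouts. It was one of the 2 members at an unadjusted p under 0.05, and its log2 fold change (1.55) had a standard error of 0.52 (edgeR adjusted p = 0.189).

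Col7a1 encodes the anchoring fibril that fastens basement membranes to the matrix beneath, and it had the highest level of all members, also per length at 6.64 CPM per kb. Its level was 44.3, 61.3 and 56.6 CPM in controls and 78.4, 117 and 51.9 CPM in knockouts, from 1409 to 4100 raw counts. Here control 1 was the lowest library and knockout 2 the highest, whereas 0 of the 8 tested fibrillar collagens had either of these extremes there. Knockout 3 lay within the controls. On the log2 scale the difference was 0.61 with a standard error of 0.29 (edgeR adjusted p = 0.342), and with the block the adjusted p was 0.146. It was 0.26 without knockout 2. In the fit that tests all genes with any count the adjusted p was 0.0416, so this gene was called there.

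The multiplexins Col15a1 and Col18a1 lie in vessel and epithelial basement membranes. Col15a1 was at 6.29, 1.68 and 3.27 CPM in controls and 10.5, 1.40 and 6.11 CPM in knockouts. Col18a1, the source of endostatin, was at 3.27, 1.11 and 1.92 CPM in controls and 4.28, 1.45 and 3.94 CPM in knockouts. Both were lowest in the libraries numbered 2 within each group, and their edgeR adjusted p-values were 0.769 and 0.614.

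Of the 6 other matrix proteins, Dcn and Sparc had the highest levels per length, at 3.46 and 3.48 CPM per kb. Dcn (decorin, a small proteoglycan that binds collagen fibrils) was at 23.2, 9.07 and 11.5 CPM in controls and 33.3, 8.24 and 36.0 CPM in knockouts. Sparc, a collagen-binding glycoprotein, was at 20.8, 5.05 and 9.59 CPM in controls and 23.0, 6.50 and 14.3 CPM in knockouts. Lum (lumican, another fibril-binding proteoglycan) was at 3.12, 0.74 and 1.02 CPM in controls and 4.18, 1.23 and 2.65 CPM in knockouts. Sparc and Lum were higher in each knockout than in the control of its number, whereas Dcn was lower in knockout 2 than in control 2. Their log2 fold changes were 0.82 for Dcn, 0.30 for Sparc and 0.71 for Lum, with standard errors between 0.64 and 0.69.

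Fn1 (fibronectin, a cell-adhesion glycoprotein) was at 9.03, 1.11 and 3.78 CPM in controls and 6.51, 1.60 and 8.79 CPM in knockouts. Fbn1 (fibrillin-1, the core of microfibrils) was at 5.35, 0.90 and 3.74 CPM in controls and 5.17, 0.71 and 3.91 CPM in knockouts, and its group means of 3.33 and 3.26 CPM were nearly equal. Postn (periostin, a matrix protein of activated fibroblasts) was at 3.75, 0.94 and 0.58 CPM in controls and 2.76, 0.68 and 0.86 CPM in knockouts, with its highest value in control 1. None of the 6 was called in either fit, and their sum per library ran from 17.8 CPM in control 2 to 74.9 CPM in knockout 1.

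Of the 4 mesenchymal cell genes none was called in either fit, and 1 was higher in all 3 pairs. That gene, Pdgfra, a receptor that marks fibroblasts, was at 3.05, 0.41 and 0.94 CPM in controls and 4.20, 0.86 and 4.96 CPM in knockouts. The knockout exceeded the control of its pair by 1.38, 2.08 and 5.25 times, and the log2 difference was 1.17 (standard error 0.90) (edgeR adjusted p = 0.596, and 0.0709 with the block). Pdgfrb, the related receptor of pericytes and stellate cells, was at 2.64, 1.23 and 0.55 CPM in controls and 2.704, 0.83 and 1.82 CPM in knockouts, with overlapping groups.

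Acta2 (smooth muscle actin) departed from the collagens in the libraries numbered 3. It was at 14.98, 1.27 and 0.62 CPM in controls and 11.3, 4.08 and 0.72 CPM in knockouts, so knockout 3 was low for Acta2 and high for Col3a1 and Dcn. Its log2 fold change (-0.08) had a standard error of 1.55 and changed sign to 0.39 with the block. Vim (vimentin, an intermediate filament of mesenchymal cells and leukocytes) was at 24.3, 5.54 and 4.69 CPM in controls and 19.0, 4.79 and 12.2 CPM in knockouts, with control 1 the highest. Its log2 fold change (0.06) had a standard error of 0.86.

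The 18 members below the count filter had at most 28 counts in any library, which was Col8a1 in knockout 1. In 6 of them no library exceeded 3 counts, so their levels could not be told from 0 at this depth. They include chains of cartilage (Col2a1, Col10a1), skin (Col17a1) and muscle junctions (Col22a1). Col6a4 had 23 counts in control 1, 3 and 2 in the other controls, 5 in knockout 1 and 0 in knockouts 2 and 3.

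Chains that share a trimer, and also Col3a1 with Col1a2 of another collagen type, were compared within each library. In such a ratio the total level of the chains does not enter. The ratio of raw Col4a2 to Col4a1 counts was 0.55, 0.57 and 0.50 in controls and 0.65, 0.79 and 0.66 in knockouts, and the groups did not overlap. The means were 0.540 ± 0.0354 (SD, n = 3) and 0.700 ± 0.0788. The two-sided exact permutation test gave p = 0.1, the smallest that 3 against 3 allows, and 0.6 after Benjamini-Hochberg adjustment over the 6 ratios examined. Exact 95% intervals, which cover counting error only, ran from 0.418 to 0.597 in control 3 and from 0.593 to 0.713 in knockout 1. They were wider in the libraries numbered 2, at 0.419 to 0.763 in the control and 0.653 to 0.955 in the knockout. Intervals of the groups thus overlapped.

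For Col1a1 over Col1a2 the ratio was 0.55, 0.45 and 0.90 in controls and 0.50, 0.72 and 0.68 in knockouts, which overlapped (exact permutation p = 1.0). Col6a3 over Col6a1 was 0.47, 0.40 and 0.92 in controls and 0.52, 0.44 and 0.87 in knockouts, so it was high in both libraries numbered 3 and low in the other 4. Over the 6 ratios the highest library was between 1.53 and 2.34 times the lowest, while the first gene of each ratio varied between 6.12 and 9.97 times in CPM.

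**Figure D5:**
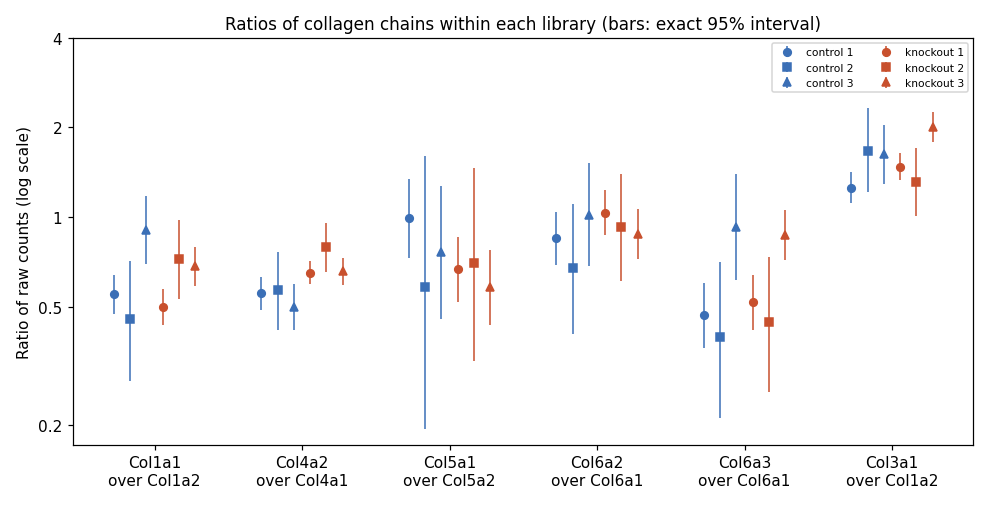
Ratio of raw counts of 2 collagen chains in each library, on a log axis, with exact 95% intervals for counting error, controls in blue and knockouts in orange. Col4a2 over Col4a1 lies between 0.50 and 0.57 in controls and between 0.65 and 0.79 in knockouts, and in the other 5 ratios the groups overlap.

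Genes that work with collagen were taken as 6 lists and markers of other cells as 10. Over the 155 tested genes of these lists edgeR called 1 without the block and 22 with it, DESeq2 called 8 and limma-voom 1. Over all genes tested these fits called 0.945%, 5.98%, 4.52% and 0.884%. Apart from the basement membrane, duct, islet and acinar lists, DESeq2 called 0 in every list, and limma-voom called 0 in every list but the basement membrane one. In the basement membrane list, which holds the laminins, nidogens, perlecan and agrin, Lamb3 rose in knockout. This laminin beta chain, found where epithelial cells are anchored to their basement membrane, was at 8.84, 8.50 and 9.73 CPM in controls and 19.4, 18.7 and 24.1 CPM in knockouts. On the log2 scale the difference was 1.20 with a standard error of 0.14 (edgeR adjusted p = 0.00991), and the groups did not overlap. The adjusted p was 0.0815 without control 2, 0.0510 without knockout 3 and 0.122 with the Xist covariate, with log2 values from 1.08 to 1.27 over the fits without 1 library.

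Of the 14 tested basement membrane genes, all had a log2 fold change above 0, with a median of 0.75, and 11 were higher in all 3 pairs, as were 24.2% of all genes. The block called 5 of them, all higher. Besides Lamb3 these were Lamc3 at 2.37, Nid2 at 1.56, Lama4 at 1.03 and Lamb2 at 0.95 on the log2 scale. Lamc3, a laminin gamma chain, was at 0.79, 0.08 and 0.44 CPM in controls and 2.30, 1.45 and 2.41 CPM in knockouts, which did not overlap. Lama4, a laminin chain of vessels, was at 3.68, 0.70 and 2.72 CPM in controls and 5.89, 1.57 and 6.73 CPM in knockouts, with the libraries numbered 2 again lowest. Agrn, a heparan sulphate proteoglycan, lay between 17.9 and 27.9 CPM in all libraries.

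The list of collagen-processing enzymes and chaperones held 27 genes. Of these 22 were tested, 0 were called in either fit, 0 reached an unadjusted p under 0.05 without the block and 3 did with it, and the median log2 fold change was 0.14. Their gene of highest CPM, P4hb, the beta subunit of prolyl hydroxylase and a general folding enzyme of secretory cells, was between 758 and 917 CPM in all 6 libraries. Among small proteoglycans and elastic fibre genes 0 of 16 were called in either fit, with 0 and 4 at an unadjusted p under 0.05 without and with the block. Their gene of highest CPM, Ltbp3, a binding protein of latent TGF-beta, was between 29.4 and 41.8 CPM.

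Of the 11 tested proteases and inhibitors, 0 were called without the block and 2 with it, both higher. Mmp14, a membrane-bound collagenase, was at 3.90, 1.27 and 2.51 CPM in controls and 6.59, 2.22 and 5.31 CPM in knockouts. Timp3, a matrix-bound inhibitor of such enzymes, was at 9.63, 1.44 and 2.76 CPM in controls and 13.4, 3.74 and 5.52 CPM in knockouts. Their log2 values with the block were 0.88 and 0.89, with edgeR adjusted p-values of 0.0312 and 0.0240. The gene of highest CPM, the inhibitor Timp2, lay between 4.84 and 19.9 CPM.

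Receptors for collagen and fibronectin gave 0 of 12 in either fit, with 1 and 3 at an unadjusted p under 0.05. Itgb1, the beta-1 integrin that pairs with the collagen-binding alpha chains, was between 45.3 and 52.2 CPM in all libraries. In the TGF-beta list, which holds ligands, receptors, Smads and direct targets, 0 of 15 were called without the block and 2 with it. These were Ccn1, a matricellular protein, at 12.5, 0.62 and 3.01 CPM in controls and 21.4, 1.45 and 12.8 CPM in knockouts, and Thbs1 (thrombospondin-1), at 4.78, 1.11 and 3.92 CPM in controls and 9.91, 1.71 and 8.52 CPM in knockouts. Both were higher in each pair, with log2 values of 1.35 and 0.97 with the block. The list as a whole went both ways. Of its 15 tested genes 6 were higher in all 3 pairs and 5 were lower, beside 24.2% and 20.8% of all genes. The groups failed to overlap in 3 of them, all lower in knockout, beside 22.9% of all genes in either direction. Smad3, a transducer and the gene of highest CPM in the list, was between 8.54 and 23.1 CPM.

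Markers of the cell types that a preparation of acinar cells can hold are given as sums per library, and their part in the results above was not tested. For fibroblast, endothelial, leukocyte and smooth muscle markers control 1 exceeded control 2 by a median of 4.74, 4.19, 5.22 and 12.7 times, against 4.02 times for the members, and for duct, islet and Schwann markers by 1.15, 1.33 and 1.16 times. The 13 fibroblast and stellate markers, which share no gene with the members, summed to 77.3, 28.2 and 43.1 CPM in controls and 101, 39.0 and 76.6 CPM in knockouts. Of 11 tested, 0 were called without the block, and with it Gas6, a ligand of receptor kinases, was called at 0.73 on the log2 scale. Endothelial markers summed to 116, 28.0 and 43.8 CPM in controls and 148, 42.2 and 49.7 CPM in knockouts, and all 10 had their highest library in knockout 1. None was called in either fit, and Plvap was between 8.004 and 40.9 CPM. The endothelial sum in knockout 3 was thus close to that in knockout 2. Between the same libraries Col3a1 was far higher in knockout 3 and Acta2 was lower there.

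Smooth muscle markers summed to 24.5, 2.34 and 0.98 CPM in controls and 20.3, 6.42 and 1.66 CPM in knockouts, with 0 of 4 tested genes called in either fit. Myh11, smooth muscle myosin, was at 17.8, 0.90 and 0.25 CPM in controls and 13.7, 4.25 and 0.43 CPM in knockouts, the same order of libraries as Acta2. Leukocyte markers summed to 158, 37.1 and 26.9 CPM in controls and 113, 24.9 and 86.8 CPM in knockouts. The block called 4 of the 11 tested, all higher and all genes of macrophages, namely Adgre1 and the complement genes C1qa, C1qb and C1qc, with log2 values from 0.93 to 2.00. Cd74 was between 4.79 and 68.1 CPM, with its highest value in control 1.

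Duct markers summed to 129, 109 and 117 CPM in controls and 215, 130 and 224 CPM in knockouts, with 4 of 7 called with the block, Krt7, Spp1 and Epcam higher and Krt19 lower, and 0 without it. Spp1 (osteopontin, a secreted matricellular protein) was at 68.9, 59.8 and 58.0 CPM in controls and 150, 78.1 and 164 CPM in knockouts. Krt19 was at 18.3, 13.3 and 18.1 CPM in controls and 11.6, 7.16 and 9.59 CPM in knockouts. Islet markers summed to between 228 and 862 CPM, and Pcsk2 was called with the block at 1.03 on the log2 scale. Mesothelial markers summed to at most 3.22 CPM and Schwann and neural markers to at most 4.52 CPM. Among adipocyte markers Adipoq and Lep had 0 counts in all libraries, which allows up to 3 counts in each, and Fabp4, which endothelium also expresses, was called with the block at 0.72.

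Of the 10 acinar genes, all tested, 8 were lower in all 3 pairs, as were 20.8% of all genes, and the median log2 fold change was -0.43. edgeR called none without the block, where 5 reached an unadjusted p under 0.05, and DESeq2 called Cel and Cela3b lower and Rbpjl higher. With the block Rbpjl, an acinar transcription factor, was called higher at 1.23 and Ptf1a, its partner, lower at -0.54 on the log2 scale.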

How the data were processed

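Per the labels, 3 control and 3 knockout preparations gave 1 library each; the cancer cell lines named in the series title were not analysed here. The authors deposited raw counts per gene, and the submitters' processing notes name STAR 2.7.10a and the builds GRCm39 and mm39. The unstranded counts were used, without the 4 rows that name no gene. These rows made up between 36.9% and 45.7% of all counted reads. The annotation at hand is GENCODE M21 on GRCm38, another build, so it gave only symbols (52133 of 55414 identifiers matched), chromosomes and exon lengths. The members and all gene lists were chosen with earlier results of these data known.

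Differences were tested with edgeR 4.0.16 in R 4.3.3 (TMM factors, filterByExpr, quasi-likelihood test, Benjamini-Hochberg adjustment over all 13115 genes, threshold 0.05). The method was tested on simulated counts, drawn gene by gene with the same dispersion and no effect of the replicate number. Such counts cannot test the block or genes that vary together. Deviations of same-numbered libraries from their group means correlated at 0.63, 0.45 and 0.28 across genes. Of the other combinations, control 3 with knockout 2 stood at 0.21 and the rest were negative. Deviations from a group mean cancel out within the group, so these correlations depend on each other. The numbers were taken to pair the samples on these values, which come from the same counts that the block fit tests. That fit, with the number as a block, is given beside the results. The labels do not say what a number shares. Of the 36 tested members, 13 have an exon that overlaps another gene model, where unstranded counts can mix. CPM uses the effective library sizes. The edgeR standard errors were derived from the test, as the absolute log2 fold change over the square root of its F statistic.

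Genes were named by rule: Trip12, the 10 members listed by symbol, the 15 collagens of highest mean CPM, members called in either fit, and in each of 16 lists up to 4 called genes and the gene of highest mean CPM. Col9a3, Col20a1, Lamb2, Col6a4, Col8a1 and the chains given only by counts were named after their values were seen. Alternatives covered scaling, filters, DESeq2 1.42.0, limma-voom 3.58.1, strand columns, an Xist covariate and leaving out each library. Intervals and the floor of 3 counts describe counting error alone.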

Additional observations from a re-analysis of the deposited data

How the results depend on the processing

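The count of genes called over all genes was 124. It was 784 with the replicate block, 1528 with library totals, 850 with no count filter, 210 with a minimum of 10 counts per library, 593 with DESeq2 and 21 with the Xist covariate, and it ran from 20 (without control 2) to 461 (without control 1) over the fits that left out 1 library. Some block fits were added after the data were seen, and they gave 396 without both libraries numbered 1, 102 without both numbered 2, 837 without both numbered 3, 3260 with library totals and 1422 with no filter. The cause of these shifts was not tested.

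Members called, 0 as reported, were 2 with the block, 3 with library totals and 1 with no filter. Over the fits that left out 1 library the count was 0 in each. The added block fits gave 1 member without both libraries numbered 1 (Col4a2), 0 without both numbered 2, 3 without both numbered 3 (Col4a2, Col4a5, Col7a1), 16 with library totals and 9 with no filter. The pathway and marker count of 1 became 22 with the block, 6 with library totals, 13 with no filter, 2 with a minimum of 10 counts per library, 8 with DESeq2, 2 with either strand column and 0 with the Xist covariate, and it ran from 0 (without control 2) to 8 (without control 1). The added block fits gave 10 without both libraries numbered 1, 1 without both numbered 2, 23 without both numbered 3, 60 with library totals and 34 with no filter. With all 6 libraries, TMM scaling and the count filter, the pairing of numbers changed the call of no member other than Col4a1 and Col4a2. With library totals the block took the members called from 3 to 16, and the share of all genes called from 11.7% to 24.9%. With no filter it took the members called from 1 to 9.

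The direction of single members was least stable under the Xist covariate. There the log2 fold change was -0.68 for Fn1, -0.51 for Sparc, -0.21 for Lum, -0.56 for Pdgfrb, -1.01 for Vim, -0.039 for Col4a1, -0.18 for Col3a1, -0.59 for Col1a2, -0.48 for Col1a1, -0.063 for Col15a1, -0.38 for Col6a1, -0.20 for Col6a2, -1.07 for Col14a1, -0.019 for Col18a1, -0.023 for Col5a2, -0.17 for Col27a1, -0.35 for Timp3 and -0.074 for Ccn1. With the block and both libraries numbered 3 left out it was -0.11 for Fn1, 0.38 for Acta2, -0.22 for Pdgfrb, -0.29 for Vim, -0.013 for Col6a1 and -0.25 for Col14a1. Acta2 was 0.39 with the block, with and without the filter, 0.17 with library totals, 0.31 in limma-voom, 0.076 on the reverse strand, 0.80 with the block and library totals and 1.05 with the block and no libraries numbered 1. Fbn1 was 0.33 with library totals, with and without the block, 0.22 on the reverse strand and 0.0052 with the block and no libraries numbered 2. Postn was 0.011 with library totals, 0.24 with the block as well and 0.023 with the block and no libraries numbered 1, and Vim was -0.015 on the reverse strand.

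Leaving out 1 library moved the log2 fold change across 0 for several genes. Among the named ones given with a fold change, the ranges were -0.20 to 1.18 for Fn1, -0.19 to 0.97 for Sparc, -0.53 to 0.47 for Fbn1, -1.19 to 0.89 for Postn, -1.24 to 2.49 for Acta2, -0.16 to 0.99 for Pdgfrb, -0.44 to 1.21 for Vim, -0.030 to 1.51 for Col1a2, -0.051 to 1.18 for Col1a1, -0.0031 to 1.26 for Col15a1, -0.35 to 2.34 for Col14a1, -0.0042 to 1.82 for Timp3 and -0.040 to 1.39 for Fabp4. None of these genes was called in any of those 6 fits. Depth limits the 18 untested members. The tested ones had a median standard error of 0.75 log2 units, against 0.22 over all genes.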

Other observations

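Lama3, Hspg2 and Ptprc were picked after their values were seen. Lama3, a laminin alpha chain, was at 3.18, 0.29 and 1.23 CPM in controls and 2.57, 0.49 and 1.69 CPM in knockouts, and its log2 difference was 0.0030 (standard error 0.89, edgeR adjusted p = 0.999). Control 1 exceeded control 2 here as in the fibrillar collagens, whereas Lamb3, like Col4a5, differed little among the controls. Perlecan (Hspg2), the heparan sulphate proteoglycan of basement membranes, was at 29.7, 8.46 and 18.5 CPM in controls and 32.3, 12.9 and 23.7 CPM in knockouts. Ptprc, the common leukocyte antigen, was at 29.9, 2.59 and 1.31 CPM in controls and 12.1, 1.97 and 1.90 CPM in knockouts, so its highest value was in control 1, and knockout 3, high for Lyz2 at 35.7 CPM, was low for it.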
